A study of Mus musculus with 4 samples.

Results

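The killer lectin-like receptors are a family of C-type lectin-like membrane proteins that are best known from natural killer (NK) cells. Here the family was taken as all gene symbols of the count tables that begin with Klr followed by a letter from a to k. This rule gave 26 members of 32290 listed genes: 11 Klra, 5 Klrb, 5 in the Klrc, Klrd1 and Klrk1 group, Klre1 with Klri1 and Klri2, and 2 Klrg. The data were single-cell RNA counts from mouse adipose tissue (AT), with 1 library for each of 4 groups. These were subcutaneous (SC) and intraperitoneal (IP) AT of wild-type (WT) mice and of EC-Tert-KO mice, written KO for the libraries. In the KO mice Tert was deleted with Tie2e-cre, which the paper describes as specific to endothelial cells (EC). The paper reports similar Tert expression of KO and WT mice in non-endothelial cells. All mice were males of 7 months that had received a high-fat diet for 5 months, and all carried Tie2e-cre and the mTmG reporter. The WT mice were TERT+/+ and the KO mice TERTfl/fl. The number of mice behind each library was not given in the sources used here, and the labels speak of cells in one place and of nuclei in another.

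These receptors sense whether the cells around a lymphocyte carry the right surface proteins. Most Klra proteins (the Ly49 receptors) and the Klrd1-Klrc pairs bind MHC class I or its non-classical relatives. Klrk1 (NKG2D) binds stress-induced ligands, the Klrb1 receptors bind Clec2 proteins, and Klrg1 binds cadherins. Inhibitory members recruit phosphatases through their own tails, and activating members signal through adaptors such as Tyrobp and Hcst. In mice the genes are best known from NK cells and are also used by subsets of memory CD8 and gamma delta T cells.

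All 26 members were protein coding genes on chromosome 6 of GRCm38, 23 of them on the minus strand. Klrg2 lay at chr6:38625693-38637242 and Klrg1 at chr6:122270596-122282882. The other 24 lay together between bases 128609227 and 131247362, a stretch of 2.64 Mb. Klrd1 (ENSMUSG00000030165) was at chr6:129591782-129598775 and Klrk1 (ENSMUSG00000030149) at chr6:129610323-129623864. RefSeq promoters of GRCm38.p6 were found for 23 members, and the 250 bases before the start were searched on both strands for 3 motifs. The Runx motif TGTGGT was in 8 of 23 member promoters and in 14.2% of 27025 promoters. The T-box motif TCACAC was in 1 of 23 and in 12.2% of all promoters, and the Ets motif AGGAAG in 7 of 23 and in 29.2% of all promoters. The 2 promoters below are shown because their genes, Klrk1 and Klrc1, were among the members with a higher level in IP than in SC CD8 T cells, and each held 1 Runx match, in capitals (ACCACA where the match is on the other strand). Both are on the minus strand, at chr6:129623865-129624114 and chr6:129678974-129679223.
Klrk1: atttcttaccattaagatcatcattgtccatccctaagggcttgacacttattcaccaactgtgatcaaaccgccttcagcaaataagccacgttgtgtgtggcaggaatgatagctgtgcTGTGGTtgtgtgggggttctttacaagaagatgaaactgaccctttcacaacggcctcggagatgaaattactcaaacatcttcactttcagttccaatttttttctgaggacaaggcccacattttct
Klrc1: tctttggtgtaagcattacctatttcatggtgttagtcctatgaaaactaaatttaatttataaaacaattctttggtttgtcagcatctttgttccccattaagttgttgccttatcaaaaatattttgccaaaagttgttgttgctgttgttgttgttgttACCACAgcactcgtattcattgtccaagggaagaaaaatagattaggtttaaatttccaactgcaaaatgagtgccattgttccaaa

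The next 2 promoters are shown because they were 92.0% identical at their best ungapped overlap, with shifts of up to 100 bases, while the median over 253 pairs of member promoters was 35.3%. They belong to Klra6 (ENSMUSG00000061769) at chr6:130026955-130027204 and Klra3 (ENSMUSG00000067591) at chr6:130337627-130337876, both on the minus strand, and neither held any of the 3 motifs.
Klra6: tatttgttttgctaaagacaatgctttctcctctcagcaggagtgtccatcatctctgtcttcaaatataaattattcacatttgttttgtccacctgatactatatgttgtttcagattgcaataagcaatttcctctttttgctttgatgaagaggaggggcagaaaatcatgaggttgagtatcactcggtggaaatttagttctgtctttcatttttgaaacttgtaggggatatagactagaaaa
Klra3: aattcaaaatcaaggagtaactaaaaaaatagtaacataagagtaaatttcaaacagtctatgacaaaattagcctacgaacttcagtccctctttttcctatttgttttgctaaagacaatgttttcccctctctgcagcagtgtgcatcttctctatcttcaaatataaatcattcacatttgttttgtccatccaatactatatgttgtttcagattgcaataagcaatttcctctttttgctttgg
Klra6 had 0 UMIs in NK cells of any library, whereas Klra3 had 74. Klra6 had 14 UMIs in CD8 T cells, 7 in gamma delta T cells and 38 in T cells of no other class. Klra3 had 25, 0 and 39 UMIs in those classes.

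Near-identical copies within the family limit which gene a read can be given to. In windows of 50 bases over the last 400 bases of the transcript, where reads of a 3' library lie, Klrc1 shared 63.5% of its windows with another gene, all of them with Klrc2. Klra10 shared 52.1%, Klra9 46.4%, Klra7 35.3% and Klra3 33.9%. In all, 6 of 11 Klra genes and 4 of the 15 other members shared at least 1 window. Values of these members are therefore uncertain, and sums over a subfamily are given beside them. Klrd1, Klrk1, Klre1, Klrg1 and the 5 Klrb genes shared none.

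The libraries held 700 to 2115 barcodes and 10015201 to 15533961 UMIs (unique molecular identifiers, 1 per captured RNA molecule), and 518 to 1955 cells were kept, with median depths of 6706 to 13047 UMIs. Cell classes were set from UMIs of markers, with no Klr gene among them. Values for the libraries are given in the order WT SC, KO SC, WT IP, KO IP wherever 4 stand in a row. NK cells were few, at 18, 6, 46 and 14. There were 179, 480, 36 and 27 CD8 T cells, 123, 316, 32 and 30 CD4 T cells, and 31, 124, 20 and 38 gamma delta T cells. With 1 library per group there was no replicate check, so no p-value is given. The 95% intervals in parentheses cover counting error only and not the spread between cells or between mice. Tert, the deleted gene, had 2 to 9 UMIs per library and 0 UMIs in the 4 to 20 cells per library with Cdh5, so the deletion could not be checked here. The KO SC and WT IP libraries shared 93 barcodes, with a median of 601 UMIs in KO SC and 35392 in WT IP, whereas the other pairs of libraries shared 0 or 1. One of the 6 NK cells of KO SC was among them, and without it the family level in those cells was 3650 CPM (UMIs scaled to the total of the class) in place of 3495. A WT SC NK cell of 22032 UMIs was 92.2% haemoglobin, and without it the family level was 5171 CPM in place of 4574. One CD8 T cell of KO IP held 107406 UMIs, 35.7% of all UMIs of its class, and 7 family UMIs.

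The gates were checked with markers that they did not use. NK markers such as Gzma, Prf1, Tyrobp and Eomes summed to 11348 to 16005 CPM in the NK cells of 3 libraries and to 7504 CPM in KO SC. In the T cell classes the same 8 genes summed to 161 to 2048 CPM. The 7 T cell markers summed to 731 to 913 CPM in NK cells and 1800 to 4294 CPM in the 3 T cell classes, and Cd5 was at 0 UMIs in NK cells of every library. The 5 macrophage markers were at 0 UMIs in NK cells of 3 libraries and at 4 UMIs in WT IP.

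NK cells had by far the highest family level, gamma delta and CD8 T cells stood between, and CD4 T cells were lowest. In NK cells the family summed to 4574 (4267 to 4899), 3495 (2999 to 4050), 4891 (4689 to 5099) and 6557 CPM (6069 to 7074). Gamma delta T cells had 541, 714, 698 and 554 CPM. CD8 T cells had 254, 338, 754 and 933 CPM, and CD4 T cells 84.4, 36.9, 96.0 and 163 CPM. The intervals of the gamma delta and CD8 T cells overlapped in WT IP and not in the other libraries, and their order turned in KO IP, where CD8 T cells were higher. B cells, which should lack most of the family, had 7.89, 3.21, 0 and 89.3 CPM. All 22 family UMIs of the KO IP B cells were in 1 cell. Of the 26 members, 20 had at least 20 UMIs in NK and T cells together. The other 6 were Klra10 and Klra17 with 14 each, Klra5 with 9, Klrb1 with 5, and Klra2 and Klrg2 with 2 each.

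**Figure D1:**
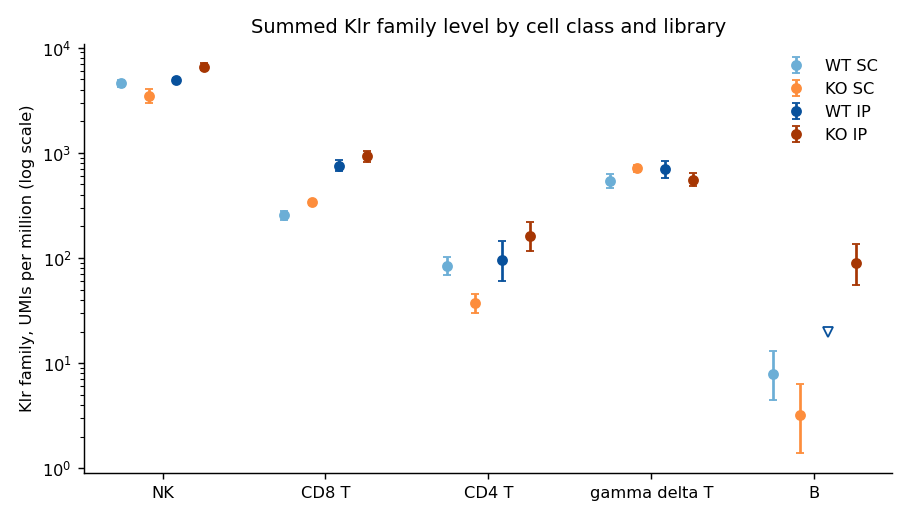
Summed level of the 26 family members in CPM (log axis) in each cell class and library, with bars for 95% counting intervals. NK cells sit between 3495 and 6557 CPM in all 4 libraries, above every other class, and the open triangle marks the limit that 3 UMIs would give for the WT IP B cells, which had 0.

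Shares of cells with a UMI depend on depth and are given as counted and after thinning. Every NK cell had at least 1 family UMI. In CD8 T cells the shares were 72.6%, 81.5%, 75.0% and 85.2%. They were 30.9%, 43.2%, 52.8% and 70.4% once each cell was thinned to 2000 UMIs. Gamma delta T cells had shares of 80.6%, 83.9%, 75.0% and 92.1%, and thinned 45.2%, 55.7%, 50% and 57.9%. In CD4 T cells the shares were 23.6%, 15.2%, 18.8% and 33.3%, and thinned 11.4%, 5.40%, 12.5% and 13.3%. The share in B cells was 3.96%, 0.648%, 0 and 3.85% unthinned. In the 3 libraries other than KO IP it was read as the background of free RNA, while in KO IP it was the 1 cell with 22 UMIs, 13 of them of Klrd1 and 8 of Klra17. For the 0 of 21 B cells in WT IP the exact binomial interval reached 16.1%. Median depths of these classes ran from 6698 to 10855 UMIs in NK and T cells.

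In NK cells the Klrc, Klrd1 and Klrk1 group made up 39.8% of family UMIs over the 4 libraries, Klra 23.8%, Klrb 19.8% and Klre1 with Klri 14.1%. A NK cell held UMIs of 10.5, 5.5, 10 and 9 members at the median in WT SC, KO SC, WT IP and KO IP. Klrd1 (CD94), the common chain of the Klrc receptors, had 105, 38, 346 and 77 UMIs. These were 586, 750, 765 and 756 CPM, with WT SC lowest and the other libraries close together. Klrk1, the NKG2D receptor, had 608, 494, 653 and 1001 CPM and was seen in 82 of 84 NK cells. Its KO IP level was the highest. Klrc1 (NKG2A), the inhibitory partner of Klrd1, had 73, 1, 156 and 26 UMIs, and Klrc2 (NKG2C), an activating partner, had 38, 3, 97 and 27. Both were low in the 6 NK cells of KO SC, which held 38 UMIs of Klrd1. The interval of Klrc2 there reached 173 CPM against a level of 212 CPM in WT SC, and with a wider NK gate its KO against WT ratio in SC turned to 0.65. Klrc3 had only 2, 1, 15 and 7 UMIs.

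The Klrb group holds inhibitory and activating receptors for Clec2 proteins. Klrb1b, an inhibitory receptor for Clec2d, had 63, 9, 238 and 60 UMIs, or 351, 178, 526 and 589 CPM. Klrb1c, the antigen long used to stain NK cells of some strains, had 279, 178, 292 and 461 CPM and was seen in 70 of 84 NK cells. Klrb1a had 18, 3, 52 and 13 UMIs and Klrb1f 15, 2, 42 and 10. Klre1, which pairs with Klri1 or Klri2, had 418, 316, 599 and 648 CPM. Klri2 had 26, 5, 30 and 24 UMIs and Klri1 had 8, 6, 16 and 3. Klrg1, a receptor of cadherins found on mature NK cells, had 30, 0, 53 and 15 UMIs. At a floor of 3 UMIs, the 0 UMIs in KO SC stood for up to 59.2 CPM, below the 167 CPM of WT SC.

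**Figure D2:**
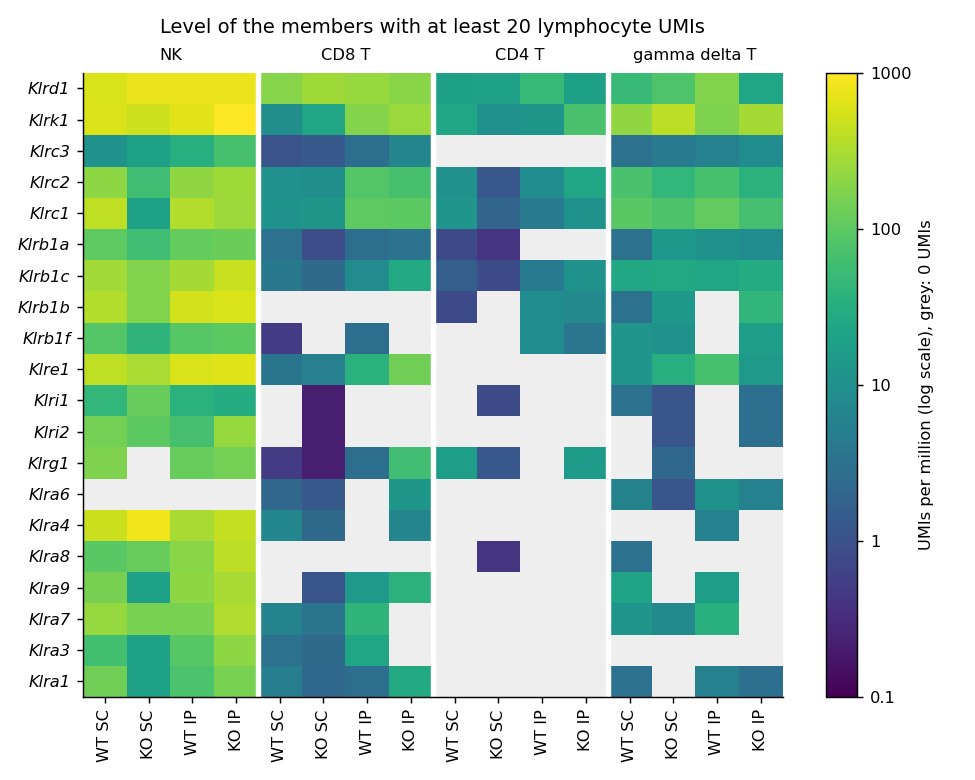
Level of each of the 20 members with at least 20 UMIs in lymphocytes, by cell class and library. NK cells carry nearly the whole set, Klrd1 dominates in CD8 T cells and Klrk1 in gamma delta T cells, and CD4 T cells are low throughout.

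Klra4, Klra8 and Klra7 were seen in fewer NK cells, and less evenly over them, than the members with most UMIs. Klra4 (ENSMUSG00000079852), an activating Ly49 receptor, had 86, 41, 136 and 44 UMIs in the NK cells of WT SC, KO SC, WT IP and KO IP, but these came from 29 of 84 cells. Its variance over cells was 17.9 times its mean. For Klra8, an activating receptor known to recognise a cytomegalovirus protein, the ratio was 15.2 with 18 cells, and for Klra7, an inhibitory receptor, 12.4 with 22 cells. In contrast, the ratio was 2.86 for Klrd1, seen in 81 cells, and 3.49 for Klrk1. The other Klra genes lay closer to the rest, with 7.18 for Klra3, 5.94 for Klra9 and 4.69 for Klra1, against 5.90 for Klrb1b, 4.89 for Klre1 and 4.32 for Klri2. A NK cell held UMIs of 1, 0.5, 1 and 1 Klra genes at the median, and up to 7, 3, 6 and 7. In 6, 3, 12 and 5 cells no Klra UMI was seen. Single cells therefore weighed heavily on these genes: 1 KO IP cell held 30 of the 41 Klra8 UMIs of its library, and 1 held 26 of the 34 Klra7 UMIs.

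The 26 NK cells without a Klra UMI also differed in genes outside the family from the 58 with one. Eomes, a transcription factor of NK cells, had 7.89 CPM (0.96 to 28.5) without and 134 CPM (105 to 169) with a Klra UMI. The other genes of its list differed less, with 98.6 against 134 CPM for Itga2 and 86.8 against 113 CPM for Cma1, and their intervals overlapped. That list summed to 193 against 381 CPM, and in WT IP, which had most NK cells, to 273 (191 to 377) against 350.01 CPM (288 to 421). Il7r, the interleukin 7 receptor, had 299.8 against 43.4 CPM, although it is a gene of other innate lymphoid cells more than of NK cells. Itga1, Cd200r1, Il7r and Tmem176b mark group 1 innate lymphoid cells other than NK cells. Their list summed to 746 CPM (643 to 860) without and 187 CPM (152 to 227) with a Klra UMI. By library it was 870, 1175, 341 and 1597 CPM against 142, 85.4, 184 and 330 CPM, so it was higher without a Klra UMI in 4 of 4. Over all libraries together Itga1 alone went the other way, with 59.2 against 90.5 CPM. Within libraries Itga1 did so only in WT IP (37.9 against 122 CPM). On few UMIs, Cd200r1 did so in WT SC (0 against 15.8 CPM) and WT IP (7.57 against 18.8 CPM). Median depth was 9522 UMIs without and 7888 with a Klra UMI. Eomes had UMIs in 7.69% of cells without and 41.4% of cells with a Klra UMI, and Il7r in 61.5% and 12.1%. In the sums alone, fewer cells of a kind and less RNA per cell cannot be told apart.

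Against CD8 T cells of the same library, the family was higher in NK cells by 4.17 (4.01 to 4.33), 3.37 (3.14 to 3.60), 2.70 (2.52 to 2.89) and 2.81 (2.61 to 3.02) on the log2 scale. All members with enough UMIs in both classes together were higher by at least 1 log2 unit, namely 14 of 14, 8 of 8, 17 of 17 and 15 of 15. Of all genes compared, 13.1%, 30.5%, 12.9% and 13.6% were. Some of these members had 0 UMIs in CD8 T cells: Klrb1b, Klri2 and Klra9 in WT SC, and Klrb1b, Klri2, Klra4 and Klra8 in WT IP. In KO IP they were Klrb1b, Klri2, Klra8, Klra7 and Klra3. They entered through NK UMIs alone and could only come out higher, so the counts do not test their direction. Klrd1 was among the members with small gaps, with log2 differences of 1.66, 1.50, 1.65 and 1.95. Smaller ones were those of Klrc1 in KO SC (1.18, -4.72 to 3.14, from 1 UMI), Klrc2 in WT IP (1.29) and Klrg1 (1.31) and Klrc1 (1.36) in KO IP. Klrb1b and Klra8 had 0 UMIs in CD8 T cells of every library. With a floor of 3 UMIs per library, Klrb1b came out at least 225-fold higher in NK than in CD8 T cells of WT SC, 62.9-fold in WT IP and 59.1-fold in KO IP. These folds take the NK level as counted, without its counting error.

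The KO against WT comparison asked whether the EC-Tert-KO genotype went along with other receptor levels in lymphocytes. In SC NK cells the family was lower in KO, with a log2 ratio of -0.38 (-0.63 to -0.15), and in IP NK cells it was higher, with 0.42 (0.30 to 0.55). The SC value rested on 6 cells, whose family levels ran from 1012 through a median of 1589 to 7505 CPM per cell, within the range of the 18 WT cells (318, 5049 and 10772). The KO SC NK cells also had the lowest NK marker sum, at 7504 CPM against 16005 in WT SC, and Cd4 UMIs in 33.3% of cells against 5.56%. The 3 of them without a Klra UMI had 1175 CPM of the group 1 innate lymphoid list and 0 UMIs of Eomes, Itga2 and Cma1. The part of these markers in the ratio was not tested. With a wider NK gate that did not need Ncr1, KO SC had 11 cells and 5668 CPM, and the ratio turned to 0.24. In IP the cells ran from 1336 through 5423 to 11915 CPM in WT and from 1430 through 6686 to 16213 CPM in KO. Without the exclusion of cells with B, myeloid or stromal UMIs, the IP ratio was 0.061. By subfamily, Klra did not differ beyond counting error in SC (-0.0098, -0.46 to 0.41) and was higher in IP (0.86, 0.60 to 1.10). Klrb was lower in SC (-0.76) and higher in IP (0.32), the Klrc, Klrd1 and Klrk1 group was -0.43 and 0.22, and Klre1 with Klri was -0.17 and 0.39.

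**Figure D3:**
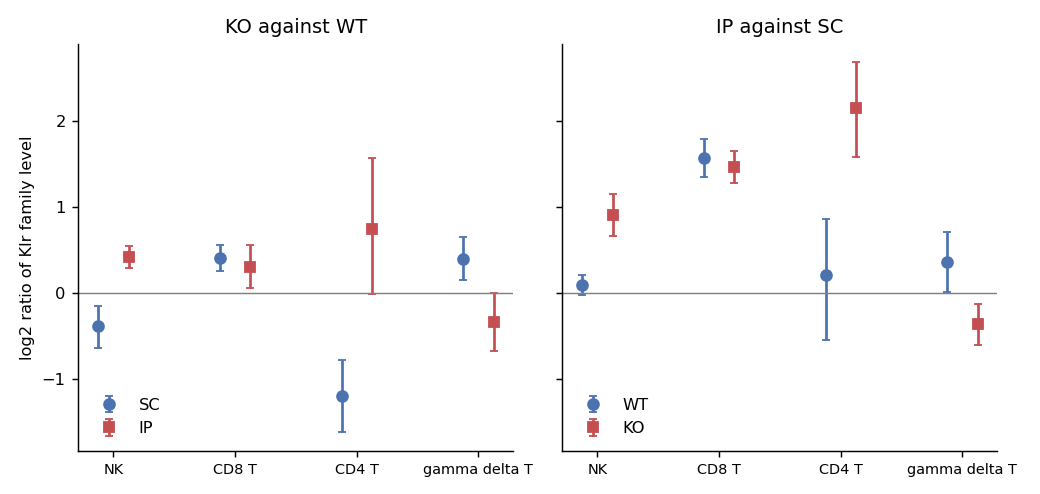
Log2 ratios of the summed family level, KO against WT in each depot and IP against SC in each genotype, for 4 cell classes, with bars for 95% counting intervals. The NK points lie on opposite sides of 0 in SC (-0.38) and IP (0.42), and the CD8 depot points lie at 1.57 and 1.47.

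Among single members in SC NK cells, 5 of 15 were lower in KO by at least 1 log2 unit, where 13.0% of all genes were, and 0 of 15 were higher, where 9.92% of all genes were. The median of the 15 was -0.58, also with Klrg1 at its bound, and that of all genes 0.11. The lower members were Klrg1 (0 against 30 UMIs, at least 2.82-fold lower), Klrc1 (1 against 73, log2 ratio -3.79, -9.69 to -1.84), Klrc2 (-1.64, -4.18 to -0.18), Klra9 (-2.37, -8.29 to -0.33) and Klra1 (-2.21, -8.12 to -0.14). In contrast, Klrd1 was at 0.37 (-0.22 to 0.91). Counting only members with an interval that left out 0, the 5 lower ones became 1 of 15 with the wider gate, and 2 were higher. With that gate Klrc2 and Klra1 turned direction, to 0.65 and 0.18.

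In IP NK cells 6 of 18 members were higher in KO by at least 1 log2 unit, where 10.8% of all genes were, and 0 of 18 were lower, where 9.95% were. The median of the 18 was 0.53 and that of all genes 0.057. The interval left out 0 for 5 of them: Klri2 (1.83, 0.99 to 2.65), Klra3 (1.20, 0.35 to 1.98), Klra1 (1.13, 0.15 to 2.01), Klra7 (1.12, 0.47 to 1.72) and Klra8 (1.07, 0.49 to 1.62). For Klrc3 it was -0.49 to 2.43. Klra7 and Klra8 turned to -0.87 and -0.74 once the cell with most family UMIs was left out of each library. Klrk1 was higher in KO IP by a smaller log2 ratio of 0.62 (0.28 to 0.95), and Klrd1 was at -0.011 (-0.39 to 0.34).

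Between depots, WT NK cells differed little. The family was at a log2 ratio of 0.10 (-0.02 to 0.21) for IP against SC, 0 of 18 members were higher in IP by 1 log2 unit (10.1% of all genes were) and 1 of 18 was lower (3.32% of all genes were), which was Klri2 at -1.13 (-1.93 to -0.31). In KO the ratio was 0.90 (0.67 to 1.15), 10 of 13 members were higher in IP (22.8% of all genes) and 0 of 13 lower (10.3%). Klrc1 (3.13, 1.09 to 9.05) and Klra9 (3.34, 1.31 to 9.25) were foremost, both with 1 UMI in KO SC. Both entered the count through KO IP UMIs alone, so it does not test their direction. Klrd1 was at 0.00083 (-0.57 to 0.61). This comparison shares the 6 KO SC cells with the one between genotypes. With the wider gate the KO ratio was 0.32 and 3 members passed 1 log2 unit with an interval that left out 0, where 8 of the 10 had done so.

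CD8 T cells carried mainly Klrd1, which made up 67.0% of their family UMIs. It had 357, 1227, 87 and 59 UMIs in WT SC, KO SC, WT IP and KO IP, or 186, 269, 243 and 196 CPM, so the levels of the depots overlapped. Klrk1 had 18, 101, 66 and 76 UMIs. Its levels of 9.38 and 22.1 CPM in SC and of 184 and 252 CPM in IP did not overlap between depots. Klrc1 had 21, 59, 37 and 30 UMIs, Klrc2 20, 44, 31 and 21, and Klre1 7, 25, 13 and 41. Klrg1 had 1 UMI in each of 3 libraries and 18 in KO IP.

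The family in CD8 T cells was higher in IP than in SC by log2 ratios of 1.57 (1.35 to 1.79) in WT and 1.47 (1.28 to 1.65) in KO. In WT 5 of 6 members were higher in IP by at least 1 log2 unit, where 6.48% of all genes were: Klrk1 (4.27, 3.53 to 5.14), Klre1 (3.27, 1.88 to 4.88), Klrc1 (3.22, 2.43 to 4.09), Klrc2 (3.04, 2.20 to 3.94) and Klra7 (2.73, 1.55 to 3.97). In KO 4 of 5 were higher, where 23.5% of all genes were: Klre1 (4.62, 3.88 to 5.41), Klrk1 (3.51, 3.06 to 3.95), Klrc1 (2.96, 2.26 to 3.60) and Klrc2 (2.87, 2.03 to 3.63). The median of all genes in that KO comparison was 0.40. The exception in both genotypes was Klrd1, with 0.39 (0.03 to 0.73) in WT and -0.45 (-0.86 to -0.08) in KO. Without the KO IP cell of 107406 UMIs, the KO ratio of the family was 2.07.

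**Figure D4:**
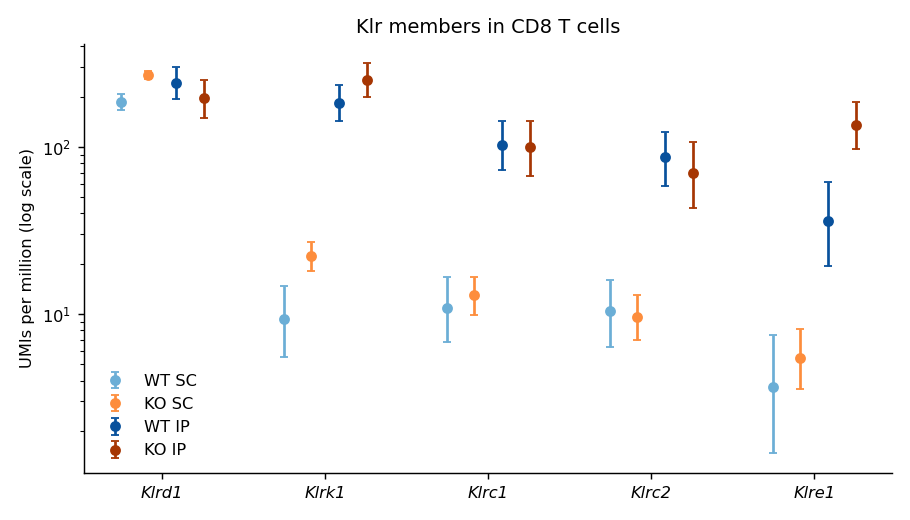
Levels of single members in CD8 T cells of the 4 libraries, with bars for 95% counting intervals. Klrd1 stays between 186 and 269 CPM, whereas Klrk1 is at 9.38 and 22.1 CPM in SC and at 184 and 252 CPM in IP.

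Between genotypes, the family in CD8 T cells was higher in KO by log2 ratios of 0.41 (0.26 to 0.56) in SC and 0.31 (0.06 to 0.55) in IP. The IP value was -0.014 with stricter gates and 0.91 without the cell of 107406 UMIs. In SC, 1 of 8 members was higher by 1 log2 unit, where 1.50% of all genes were, and 2 of 8 were lower, where 3.40% were. The higher one was Klrk1 (1.21, 0.51 to 2.05), whose ratio was -0.057 when each cell was weighted equally. The lower ones were Klra4 (-1.48, -2.79 to -0.21) and Klra1 (-1.25, -2.67 to 0.17). Klrd1, with most UMIs, was at 0.53 (0.36 to 0.71), and Klra as a whole at -0.90 (-1.47 to -0.31). In IP, 1 of 5 members was higher (11.7% of all genes were), which was Klre1 (1.87, 0.98 to 2.93), and 0 of 5 were lower (3.72%).

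Over the 4 libraries, 151 of 722 CD8 T cells had no family UMI, 443 had only Klrd1, and 128 had at least 1 other member. Cells with another member were 14.5% (WT) and 13.3% (KO) of CD8 T cells in SC, but 50% (WT) and 74.1% (KO) in IP. They stood apart in genes of memory and effector T cells. That list of 10 genes summed to 6775 CPM (6643 to 6909) in cells with another member, 861 CPM (833 to 889) in cells with only Klrd1 and 1189 CPM (1130 to 1251) in cells with none. Ccl5, a chemokine of memory T cells, had 4530, 94.7 and 452 CPM. The naive T cell list, with Ccr7 and Lef1, went the other way with 2183, 3810 and 3603 CPM. In both lists, cells with only Klrd1 were nearer to those with no family UMI than to those with another member. Over the 4 libraries together they were still lower than cells with no family UMI in the memory and effector list and in Ccl5. That group without family UMIs includes 4 KO IP cells with a high memory and effector sum, given below. The part of those cells in the difference was not tested. By library the memory and effector sum of cells with another member was 5844, 5241, 9137 and 10799 CPM. In cells with only Klrd1 it was 1030, 760, 1979 and 610 CPM, lower in 4 of 4 libraries. The 4 KO IP cells with no family UMI were an exception, with 15739 CPM.

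**Figure D5:**
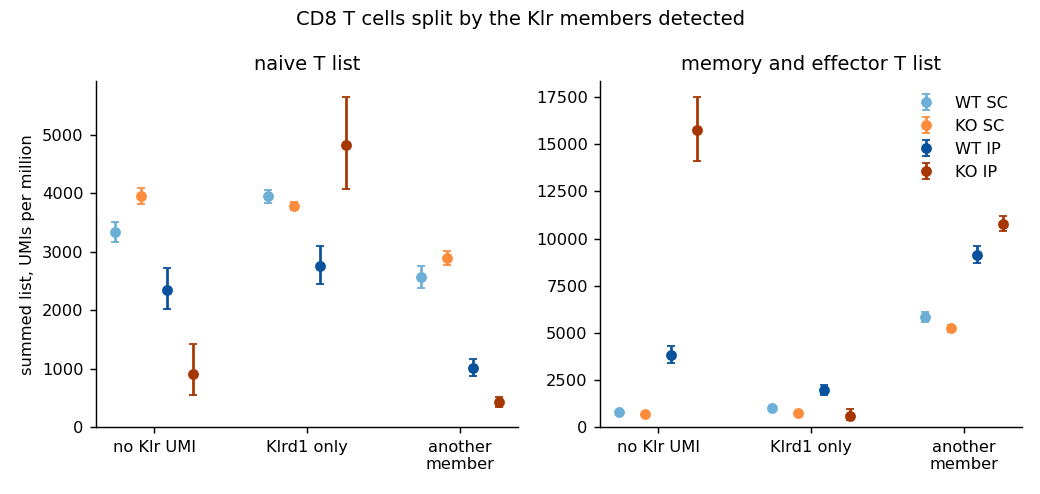
Summed levels of the naive list and of the memory and effector list in CD8 T cells with no family UMI, with only Klrd1 and with another member, by library. The memory and effector list is at 5241 to 10799 CPM in cells with another member and at 610 to 1979 CPM in cells with only Klrd1.

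Klrc1 and Klrc2 were seen in the same CD8 T cells. Of cells with Klrc1, 77.8%, 71.4%, 91.7% and 63.6% also had Klrc2 in WT SC, KO SC, WT IP and KO IP, against 1.76%, 1.53%, 4.17% and 6.25% of cells without Klrc1. Klrc1 shared 63.5% of its transcript end with Klrc2, whereas the end used for Klrc2 shared 0% with any other gene. The part of shared reads in the overlap of Klrc1 and Klrc2 over cells was not tested.

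Gamma delta T cells were marked by Klrk1, with 49.0% of their family UMIs and UMIs in 68.5% of the 213 cells. It had 69, 353, 29 and 99 UMIs in WT SC, KO SC, WT IP and KO IP, or 213, 397, 166 and 287 CPM. In both depots its level was higher in KO, with log2 ratios of 0.89 (0.52 to 1.29) in SC and 0.78 (0.18 to 1.44) in IP. Klrd1 had 16, 71, 30 and 8 UMIs, and its IP ratio of KO against WT was -2.82 (-4.22 to -1.73). It was the 1 of 4 members that was lower in IP by at least 1 log2 unit, where 4.50% of all genes were. In SC 1 of 6 was higher (6.60% of all genes were), Klre1 at 1.25, and its interval of -0.11 to 3.37 included 0. The Klra genes had 16 UMIs in WT SC and 9 in KO SC (-2.26, -3.65 to -1.03), and 13 and 4 in IP.

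The summed family in gamma delta T cells was at 0.40 (0.16 to 0.65) for KO against WT in SC and at -0.33 (-0.67 to 0.01) in IP. The SC ratio turned to -0.18 in cells thinned to 2000 UMIs. Between depots it was 0.37 (0.02 to 0.71) in WT, which turned to -0.14 when thinned, and -0.36 (-0.61 to -0.13) in KO. Klrd1 followed the same signs, with 1.77 (0.87 to 2.77) in WT and -1.70 (-3.05 to -0.73) in KO. In KO, Klrb1b was higher in IP (1.68, 0.50 to 2.92).

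All gamma delta T cells were split by Klrk1 and, separately, by Klrc1 or Klrc2. The overlap between the splits is not given. The 146 cells with Klrk1 had 748 CPM (699.6 to 798) of the naive T cell list, against 1450 CPM (1348 to 1557) in the 67 cells without it. Ccr7, a homing receptor of naive T cells in that list, had 14.0 against 234 CPM. In the 71 cells with Klrc1 or Klrc2, the memory and effector list was at 5094 CPM (4918 to 5274) and Ccl5 at 2836 CPM, against 1909 CPM (1829 to 1992) and 169 CPM in the other 142. The naive list was at 959 CPM both with and without Klrc1 or Klrc2. Median depths were 7925 and 7676 UMIs for the split by Klrk1 and 8566 and 7694 UMIs for that by Klrc1 or Klrc2.

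In CD4 T cells few members were seen at all, and Klra had 2 UMIs in 501 cells. The family was lower in KO SC than in WT SC, with a log2 ratio of -1.19 (-1.61 to -0.77), and 3 of 4 members were lower by at least 1 log2 unit, where 4.34% of all genes were. These were Klrg1 (3 against 21 UMIs, -3.59, -6.16 to -2.03), Klrc1 (5 against 15, -2.46, -4.37 to -1.02) and Klrk1 (25 against 28, -1.13, -1.97 to -0.30). The family ratio was -0.38 in thinned cells, where Klrk1 turned to 1.70, and under stricter gates Klrg1 turned to 0.87. With an interval that left out 0, the 3 lower members became 1 without the cell with most family UMIs and 0 with stricter gates. In IP the family was at 0.75 (-0.01 to 1.57), and Klrk1 had 19 UMIs in KO and 3 in WT (2.27, 0.69 to 4.86). For IP against SC the family ratio was 0.21 (-0.55 to 0.86) in WT and 2.15 (1.58 to 2.68) in KO.

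Klrg1 in CD4 T cells sat in 6 cells, which were rich in genes of regulatory T cells. The list of Foxp3, Il2ra, Ctla4, Ikzf2, Il1rl1 and Areg summed to 7026 CPM (6402 to 7695) in them and to 1351 CPM (1312 to 1392) in CD4 T cells with no family UMI. Foxp3, the defining factor of regulatory T cells, had 348 against 39.9 CPM, and Il1rl1, the interleukin 33 receptor, 680 against 14.1 CPM.

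T cells that fell in none of these classes had 478, 400, 2151 and 836 CPM of the family. One WT IP cell of 178435 UMIs held 192 of the 1075 family UMIs there, and without it the level was 2748 CPM.

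Of the signalling partners, Tyrobp separated NK from CD8 T cells, whereas Hcst did not. Myeloid cells were not part of this comparison. Tyrobp, the adaptor of activating Klra receptors, had 2070, 1817, 1522 and 1148 CPM in NK cells and 0 to 2.79 CPM in CD8 T cells. Hcst, the adaptor of Klrk1, was present in both, with 346, 336, 458 and 442 CPM in NK cells and 287, 341, 550 and 405 CPM in CD8 T cells. Among ligands, 2 classical MHC class I genes moved in opposite ways with genotype. H2-D1 was higher in KO in 7 of 7 cell classes of SC, by log2 differences of 0.25 to 0.96, and in 7 of 7 of IP, by 0.57 to 1.24. H2-K1 was lower in 7 of 7 classes of SC, with -0.92 to -0.29, and in 6 of 7 of IP, with -0.61 to 0.14. H2-T23, which encodes the ligand of the Klrd1-Klrc pairs, was higher in KO in 1 of 7 classes of SC and 0 of 7 of IP. The strain background of the mice was not given in the sources used here, so a difference in expression of H2-D1 and H2-K1 and a difference in their alleles cannot be told apart. The part of these ligands in the receptor values was not tested.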

How the data were processed

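Per the labels, cells of mouse AT were captured with droplet-based 3' chemistry, and the submitters' processing notes name Cell Ranger, STAR 2.6 and mm10. The header of the deposited files names Cell Ranger 7.0.0. The authors deposited UMI counts for each barcode and gene, and these were not normalized. Each of the 4 samples was 1 library. No columns from other series were present.

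Barcodes under 200 genes or over 25% mitochondrial UMIs were left out. Scrublet (scanpy 1.11.5) marked 23 doublets (0.556%), and 4113 cells stayed without them. NK cells needed Ncr1 and no CD3 UMI. Gamma delta T cells needed CD3 and Trdc, CD8 T cells CD3 and Cd8a or Cd8b1, and CD4 T cells CD3 and Cd4, each without the others' markers. UMIs were summed per class and library and divided by the class total (CPM). Exact Poisson intervals were used for levels, Clopper-Pearson intervals for shares and conditional binomial intervals for log2 ratios, to which 0.5 UMI was added. The intervals of log2 ratios were tested on counts simulated with counting error alone. That test could not show whether they hold for the spread between cells or mice. Members with at least 20 UMIs in lymphocytes were described one by one, ratios were counted where both groups held 20 UMIs together, and a difference was named past 1 log2 unit with an interval leaving out 0. Unless an interval is named, counts of members in the results use the 1 log2 unit alone, as do the shares of all genes beside them. Promoters were from RefSeq and transcripts from GENCODE vM21. One gene list is not reported here. The members and gene lists were chosen with earlier results of these data known. Other gates, filters, scalings and thinning to 2000 UMIs were tried, as were 3 settings chosen after seeing the data: cells over 10% haemoglobin, the cell with most family UMIs, or cells over 50000 UMIs left out. The scripts ran on scipy 1.17.1 and pandas 2.3.3 with Python 3.11.15.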

Additional observations from a re-analysis of the deposited data

Results flagged for a closer look

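Several effects had opposite signs in the groups compared, and none of these differences was tested, since each group was 1 library. In NK cells the log2 ratio between KO and WT was -0.38 (SC) and 0.42 (IP) for the family, -0.76 and 0.32 for Klrb, -0.43 and 0.22 for Klrc, Klrd1 and Klrk1, and -2.21 and 1.13 for Klra1. In CD4 T cells the same ratio of Klrk1 was -1.13 in SC and 2.27 in IP, but the SC value was 1.70 in cells thinned to 2000 UMIs, so that the signs were then alike. Between depots, IP against SC, Klrd1 of CD8 T cells was at 0.39 in WT and -0.45 in KO. In gamma delta T cells that ratio was 0.37 and -0.36 for the family and 1.77 and -1.70 for Klrd1.

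Barcodes that were not kept as cells held family UMIs as well, 24 (WT SC), 39 (KO SC), 6 (WT IP) and 14 (KO IP). More were in the 486 kept cells of no class, which were also left out of the comparisons. These held 349 UMIs of Klrd1, 163 of Klrk1 and 147 of Klrb1b, against 566, 531 and 370 in NK cells.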

How the results depend on the processing

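Of 240 alternative values of the family levels, 201 stayed within the counting interval of the value above and 39 moved; of 320 alternative ratios, 274 stayed, 42 moved and 4 turned. Of 675 alternative ratios of single members, 640 stayed, 25 moved and 10 turned. Levels are in CPM and ratios in log2, and the causes of the moves were not tested. No paired analysis was possible because each group was 1 library and the labels give no replicate numbers, so no replicate could be left out either.

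With the wider NK gate, NK levels were 5668 (KO SC), 5103 (WT IP) and 7102 (KO IP), the ratios were 0.24 for KO against WT in SC, 0.32 for KO IP against KO SC and 4.07 for NK against CD8 in KO SC, and Klrc2 (0.65), Klra1 (0.18) for KO against WT in SC and Klrc2 (-0.12) and Klra8 (-0.24) for KO IP against KO SC turned. Without the exclusion of B, myeloid and stromal UMIs, NK levels were 2911 in KO SC and 5099 in KO IP, with KO against WT at -0.65 in SC and 0.061 in IP, and NK against CD8 at 3.12 in KO SC and 2.45 in KO IP. With stricter gates, the KO against WT ratio was -0.014 in IP CD8 T cells and -0.62 in SC CD4 T cells (46.6 in KO SC), and Klrg1 in the latter turned to 0.87.

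Thinned to 2000 UMIs, levels were 5278 and 5728 in NK cells of WT SC and WT IP, 358 and 1463 in CD8 T cells of KO SC and KO IP, 52.8 and 156 in CD4 T cells of WT SC and WT IP, and 806 in gamma delta T cells of WT SC. KO against WT was then -0.80 in SC and 0.27 in IP NK cells, 0.83 in IP CD8, -0.38 in SC CD4 and -0.18 in SC gamma delta T cells. IP against SC was 1.18 in KO NK cells, 2.04 in KO CD8, 1.58 in WT CD4 and -0.14 in WT gamma delta T cells. NK against CD8 was 4.34 in WT SC, 3.08 in KO SC and 2.23 in KO IP, and Klrk1 in SC CD4 T cells turned to 1.70. With each cell weighted equally, NK levels were 5187 (WT SC), 5490 (WT IP) and 7447 (KO IP), and CD8 levels 287, 856 and 1489. KO against WT was then -0.78 in SC NK, 0.20 in SC CD8, 0.80 in IP CD8 and 0.15 in SC gamma delta T cells, IP against SC was 1.30 in KO NK and 2.17 in KO CD8 T cells, NK against CD8 was 2.32 in KO IP, and Klrk1 in SC CD8 T cells turned to -0.057.

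With median of ratios scaling, levels were 4993 and 4611 in NK cells of WT SC and WT IP and 378 and 809 in CD8 T cells of KO SC and KO IP, IP against SC was -0.11 in WT NK and 1.11 in KO CD8 T cells, and NK against CD8 was 2.88 in KO SC. Without the Klra genes, NK levels were 3414, 2350, 3860 and 4692, the WT SC CD8 level was 229.7, KO against WT in IP NK cells was 0.28, and NK against CD8 was 3.89 in WT SC, 2.86 in KO SC and 2.46 in KO IP.

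Without haemoglobin-rich cells, NK cells of WT SC were at 5171, IP against SC in WT NK cells at -0.081 and NK against CD8 in WT SC at 4.34. Without cells over 50000 UMIs, CD8 T cells of KO IP were at 1414, KO against WT in IP at 0.91, IP against SC in KO at 2.07 and NK against CD8 in KO IP at 2.21. Without the cell with most family UMIs, levels were 4215, 2426 and 5852 in NK cells of WT SC, KO SC and KO IP, 644.5 in CD8 T cells of WT IP, 65.6, 57.5 and 117 in CD4 T cells of WT SC, WT IP and KO IP, and 459 and 559.5 in gamma delta T cells of WT SC and WT IP. In NK cells KO against WT was then -0.79 in SC and 0.26 in IP, IP against SC was 0.22 in WT and 1.26 in KO, and NK against CD8 was 2.88 in KO SC and 2.92 in WT IP. Klra7 (-0.87) and Klra8 (-0.74) for KO against WT in IP and Klra8 (-0.41) for KO IP against KO SC turned.

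Counts of members past 1 log2 unit with an interval leaving out 0 also moved. In SC NK cells 5 were lower in KO, against 1 with the wider gate or in thinned cells and 3 without Klra. In IP NK cells 5 were higher in KO, against 1 without the exclusion or without Klra, 3 without the top cell and 0 in thinned cells. For KO IP against KO SC in NK cells 8 were higher, against 3 with the wider gate, 5 without Klra and 0 in thinned cells. For WT IP against WT SC in CD8 T cells 5 were higher, against 3 without the top cell and 0 in thinned cells. In SC CD4 T cells 3 were lower, against 1 without the top cell and 0 with stricter gates. The 5 in SC NK cells included Klra9 and Klra1, and the 5 in IP NK cells Klra3, Klra1, Klra7 and Klra8. Their counts of 3 and 1 without Klra therefore follow from leaving these genes out. The 8 for KO IP against KO SC included Klra9 as well. Thinning leaves fewer UMIs per member, and the number of members still compared is not given. Counts in thinned cells therefore cannot tell a lost difference from too few UMIs. Depth limits the NK values of KO SC most, where the class held 50637 UMIs.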

Other observations

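Some members were also seen outside NK and T cells. Klra2 had 161 of its 223 UMIs in kept cells in myeloid cells, set by markers chosen after the data were seen, and 2 in lymphocytes. Klra17 had 16 UMIs in cells with markers of plasmacytoid dendritic cells, 15 in myeloid cells, 8 in cells with markers of type 1 conventional dendritic cells and 56 in cells of no class. Klrb1b had 430 of its 671 UMIs in NK and T cells, but also 55 UMIs in myeloid cells, 23 in the type 1 conventional dendritic cells and 16 in cells with markers of group 2 innate lymphoid cells, which also held 17 UMIs of Klrg1. Klri1 had 49 UMIs in myeloid cells, close to its 48 in lymphocytes. Klrg2 had 13 UMIs in stromal cells and 2 in lymphocytes.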
